A study of Homo sapiens with 4 samples.

Results

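IFI16, IFIT2, PARP9 and UBE2L6 are interferon-stimulated genes that the authors listed as differing at least 2-fold between ADAR knockdown and control cells. They were taken by gene symbol from 2 deposited tables, 1 for HepG2 and 1 for K562, and are 4 of the 2257 distinct genes listed in either table. IFI16 and PARP9 were listed in HepG2 alone, UBE2L6 was listed in K562 alone, and IFIT2 was listed in both lines. They were selected on their averages in knockdown and control, because the tables hold only genes past 2-fold, so all folds of these genes are descriptions with no test. A gene that is not listed is not shown to be unaltered: its difference may lie under 2-fold, or a filter that is not stated may have removed it. For every listed gene, the larger of its 2 averages was at least 14 in HepG2 and 13.8 in K562, so genes with lower averages are absent.

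The series holds RNA sequencing of 4 groups of cells: HepG2 with siRNA against ADAR, HepG2 with scrambled siRNA, K562 with siRNA against ADAR, and K562 with scrambled siRNA. HepG2 is a hepatocellular carcinoma line and K562 is an erythroleukemia line; both knockdown and control cells carry a stably transfected plasmid, and the siRNA was the one of several tried that lowered ADAR most. Each group is 1 sample with 2 technical replicates, which the authors' tables give as 1 average, so the differences below carry no replicate check, error or p-value. The stated aim of the study was the effect of ADAR on splicing; the values here are gene levels. The depth of the libraries is unknown, and the tables do not name the unit of the averages.

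ADAR edits adenosines to inosines where RNA is double-stranded. As background, cellular double-stranded RNA that is left unedited can be bound by the sensor IFIH1, which signals through MAVS to switch on interferon genes. Secreted interferon then acts through its receptors on transcription factors that bind the interferon-stimulated response element (ISRE) in front of their target genes. IFI16, IFIT2, PARP9 and UBE2L6 are known targets of interferon with different roles: a nucleic acid sensor, an antiviral RNA-binding effector, a partner of a ubiquitin ligase in the interferon response, and an enzyme of ISG15 conjugation.

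The targeted gene, ADAR (ENSG00000160710), checked the labels and was lower in both knockdowns. It averaged 129 in the HepG2 knockdown against 461 in the HepG2 control, and 131 in the K562 knockdown against 275 in the K562 control, which is 3.54-fold and 2.09-fold lower. Over all genes, 55% of the 1409 genes listed in HepG2 were higher in the knockdown, whereas 38.2% of the 942 listed in K562 were. Folds are the ratio of the authors' averages after adding 1 to each, which equals their deposited fold. Of 16 hepatocyte markers, none was in the HepG2 table, so the tables do not show their levels. Of 17 erythroid markers, 3 globin genes were listed in HepG2, all higher, with summed averages of 208 in the knockdown and 81.1 in the control; none was listed in K562. Of 12 myeloid and lymphoid markers, ITGAM was listed in K562, at 11.6 in the knockdown and 28.8 in the control, and HepG2 listed no such marker. What part these markers have in the values below was not tested. In such bulk RNA, fewer cells of a type and less RNA per cell cannot be told apart.

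In HepG2 all 3 listed genes of this set were higher in the knockdown, and in K562 both listed genes were lower. The background of the HepG2 table is 55% higher, and that of the K562 table is 61.8% lower; since the same averages chose the genes, nothing is read from these counts. At 3-fold or more, IFI16 was the 1 member higher in HepG2, where 17% of listed genes were higher by that much, and UBE2L6 was the 1 member lower in K562, where 14.2% were lower by that much. Any scaling between the libraries is not stated: with the HepG2 knockdown averages divided by 1.5, IFIT2 and PARP9 would each be 1.44-fold higher, and with the K562 knockdown averages multiplied by 1.5, IFIT2 would be 1.94-fold lower.

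**Figure D1:**
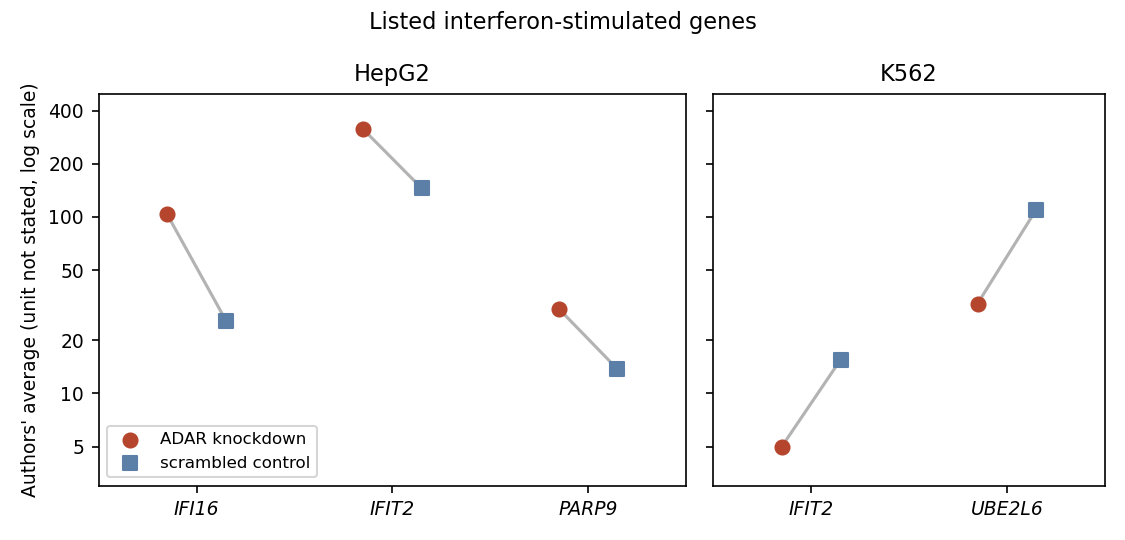
Authors' average for each listed interferon-stimulated gene (log scale, unit not stated), with ADAR knockdown as circles and scrambled control as squares in HepG2 and K562. Each point is 1 average of 1 sample, without error bars; the 3 HepG2 pairs slope down from knockdown to control and the 2 K562 pairs slope up.

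IFI16 encodes a protein of the HIN200 family that binds DNA in the nucleus and cytosol and restricts viral transcription. Its gene (ENSG00000163565) lies on chromosome 1, and no other annotated gene overlaps it. In the authors' deposited table for HepG2 it averaged 103 in the knockdown and 25.9 in the control, a 3.88-fold difference (log2 fold 1.96). It had the largest fold of these genes in either line, and 136 of the 775 genes listed as higher in HepG2 had a larger one. By comparison, the median fold of all genes listed as higher in HepG2 was 2.55. Of the 4 genes of the HIN200 family, it was the 1 listed in HepG2, and the K562 table held no member of the family. AIM2, MNDA and PYHIN1 are the unlisted relatives; AIM2 is a cytosolic DNA sensor.

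IFIT2 encodes a tetratricopeptide-repeat protein that binds RNA and limits viral replication and translation. The gene (ENSG00000119922) lies on chromosome 10 and was the one gene of the set in both tables, with opposite directions. In HepG2 it averaged 315 in the knockdown and 146 in the control, which is 2.16-fold higher (log2 fold 1.11). In K562 it averaged 5 in the knockdown and 15.5 in the control, which is 2.75-fold lower (log2 fold -1.46). The HepG2 fold is near the threshold, with 621 of the 775 higher genes having a larger one. The K562 averages are near the bottom of that table: the larger of its 2 averages, 15.5, was above that of 2.44% of the listed genes, and the smallest such value was 13.8. Adding 10 to each average instead of 1 leaves IFIT2 1.70-fold lower in K562. The K562 control average stood far below the HepG2 control average, but the tables were made separately and whether their levels share a scale is not stated.

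The IFIT2 values in HepG2 have a second limit. In the GENCODE annotation, a gene named AL353751.1, given the type antisense, overlaps IFIT2 on the same strand. The authors' HepG2 table lists its identifier too, at 54.5 in the knockdown and 9.5 in the control (5.29-fold higher). Both rows went the same way, and how reads were divided between these genes is not stated, so they may not be separate observations. LIPA, on the opposite strand, also overlaps IFIT2 and was in neither table. Of the 5 IFIT genes, IFIT2 was the 1 listed in each line; IFIT1, IFIT1B, IFIT3 and IFIT5 were in neither table.

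PARP9 encodes a protein with macrodomains that pairs with the ubiquitin ligase DTX3L. Its gene (ENSG00000138496), on chromosome 3, averaged 30.3 in the HepG2 knockdown and 13.8 in the HepG2 control, which is 2.12-fold higher (log2 fold 1.08). It is the member nearest to the 2-fold threshold: 648 of the 775 higher genes had a larger fold, and members below 2-fold are not shown in these tables. PARP9 and DTX3L lie head to head and overlap at their 5′ ends on opposite strands, and strand-specific counting is not stated. DTX3L was in neither table. Of the 6 genes of the list of PARP9, DTX3L and antiviral PARP genes, PARP9 was the 1 listed.

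A sequence at the 5′ ends of PARP9 and DTX3L is shown because it holds an ISRE core near a RefSeq start of each. The search used GAAANNGAAA on both strands, in the RefSeq windows from 250 bases before to 50 after a gene's start on GRCh38.p14. The core lies 41 to 32 bases before 1 of the 2 RefSeq starts of PARP9 (chr3:122564322-122564351 with its flanks, minus strand), and the same 10 bases, read on the plus strand, run across the RefSeq start of DTX3L. Capitals mark the core. The core before NMI, an interferon-induced gene described below, is added for comparison (chr2:151289812-151289841, minus strand).
PARP9: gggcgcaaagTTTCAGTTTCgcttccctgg
DTX3L: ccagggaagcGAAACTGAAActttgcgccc
NMI: ttaaagcagtTTTCTTTTTCactgtctttt
Of all 35116 RefSeq windows, 3.57% held this core, and a match is a description of the letters, not a site of binding. The other PARP9 window and both windows of IFI16 and UBE2L6 held no such letters. Neither did any window of these 3 genes hold the gamma-activated sequence core TTCNNNGAA, which 7.66% of all windows held and which the NMI window held once. RefSeq windows were matched for 3 of the 4 genes, the exception being IFIT2.

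UBE2L6 encodes a ubiquitin-conjugating enzyme that is the main carrier of ISG15, the interferon-induced modifier that it passes from the activating enzyme UBA7 to ligases such as HERC5. Its gene (ENSG00000156587) lies on chromosome 11, with no overlapping gene in the annotation. In the authors' deposited table for K562 it averaged 32.3 in the knockdown and 110 in the control, so 29.3% of the control value was left. This is 3.34-fold lower (log2 fold -1.74), and 94 of the 582 genes listed as lower in K562 had a larger fold; the median fold of those genes was 2.44. Unlike IFIT2 in that line, its control average is well inside the range of the table, above the larger average of 85.0% of listed genes. Of the 8 genes of ISG15 conjugation, UBE2L6 was the 1 listed: ISG15, UBA7, HERC5, HERC6, USP18, TRIM25 and ARIH1 were in neither table.

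**Figure D2:**
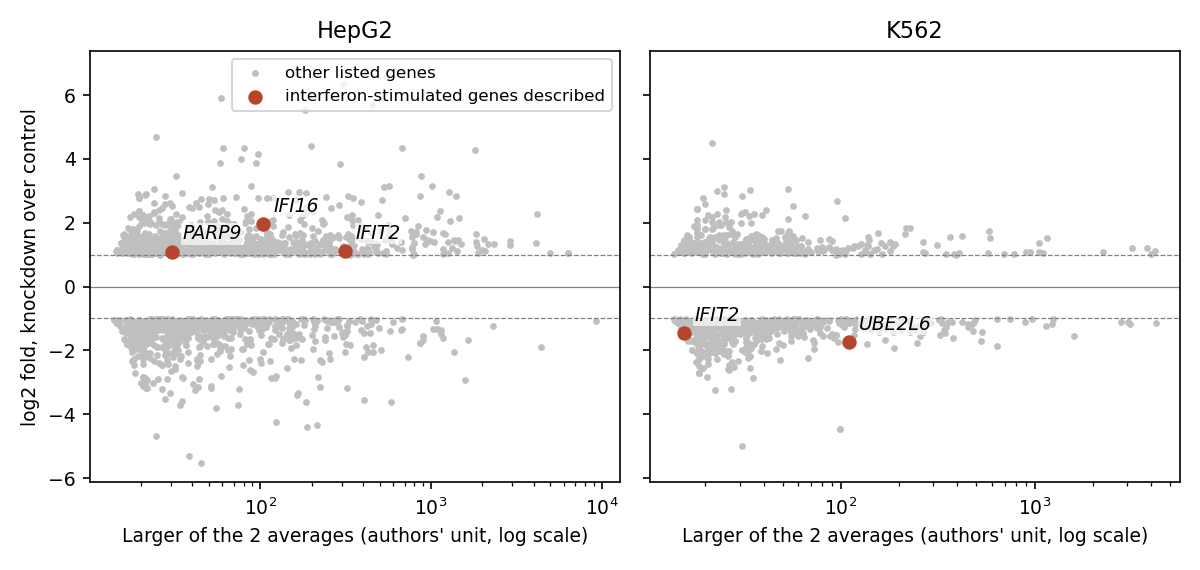
Log2 fold of knockdown over control against the larger of the 2 averages (log scale) for every listed gene in HepG2 and K562, with dashed lines at 2-fold and IFI16, IFIT2, PARP9 and UBE2L6 marked. No gene lies between the dashed lines because the tables hold none; PARP9 and IFIT2 sit at the edge in HepG2, and IFIT2 sits at the low end of the averages in K562.

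A panel of interferon-stimulated genes gives the members their setting. Of the 78 genes of the panel, the members included, 6 were listed in HepG2, 5 higher and 1 lower. Of these 6, 3 are members that these averages chose. Their median log2 fold was 1.36, against 1.05 over all genes listed there, of which 55% were higher and 45% were lower. Both medians mix the 2 directions, and the median over all genes listed as higher in HepG2 was 1.35. In K562, 3 were listed and all 3 were lower, with a median of -1.46, against -1.28 over all genes listed as lower there. Of the 3, 2 are members that these averages chose. Over all genes listed in K562, 61.8% were lower, and the median, which mixes both directions, was -1.09. Nothing is read from these counts or medians. The listed genes of the panel beyond the members were NMI, APOL6 and LAMP3. The panel is not complete, so other genes that interferon induces may be listed in either line, in either direction.

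NMI encodes an interferon-induced partner of STAT proteins and MYC-family factors, and it showed the same pattern of directions as IFIT2. It averaged 19.8 in the HepG2 knockdown and 3.5 in the HepG2 control, 4.61-fold higher (log2 fold 2.21). In K562 it averaged 46.8 in the knockdown and 118 in the control, 2.50-fold lower (log2 fold -1.32). APOL6, an interferon-induced apolipoprotein L gene, averaged 18 in the HepG2 knockdown and 5.25 in the HepG2 control, 3.04-fold higher. The larger HepG2 averages of NMI and APOL6 are low among the genes listed there, where the smallest such value was 14. Both lie under the lower quartile of these values. LAMP3, a lysosomal membrane protein gene that interferon and cell stress both induce, was the 1 lower gene of the panel in HepG2. It averaged 7.25 in the knockdown and 75.5 in the control, 9.27-fold lower.

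**Figure D3:**
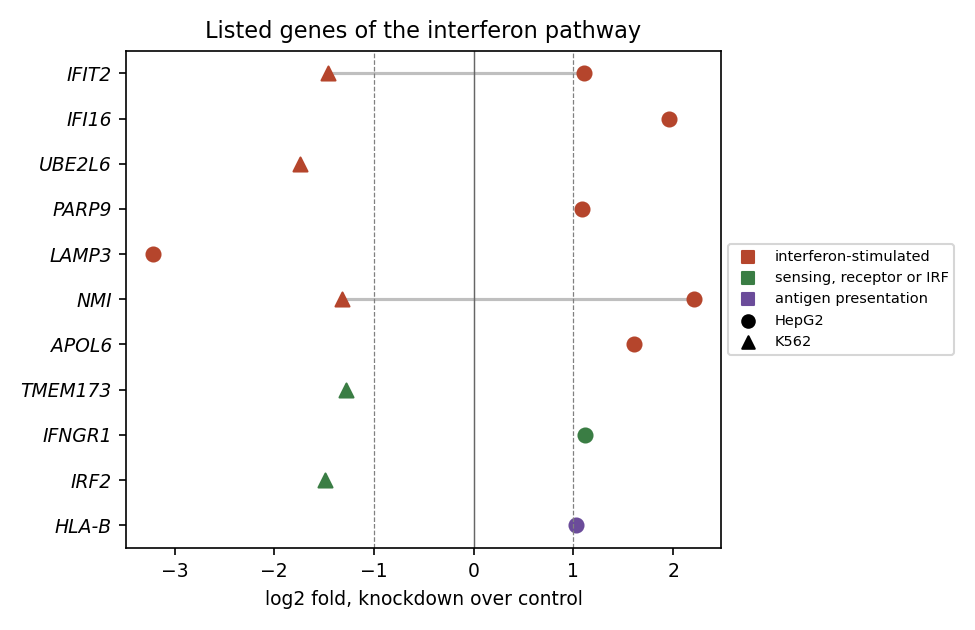
Log2 fold of knockdown over control for each listed gene of the interferon-stimulated, signalling and antigen presentation lists, circles for HepG2 and triangles for K562, with dashed lines at 2-fold. IFIT2 and NMI, joined by lines, are right of 0 in HepG2 and left of 0 in K562; LAMP3 is the 1 HepG2 gene left of 0.

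Some genes of nucleic acid sensing and interferon signalling were also listed. Of 65 genes of nucleic acid sensing, interferon ligands, receptors with JAK-STAT signalling and interferon regulatory factors, 1 was listed in HepG2 and 2 in K562. Over all listed genes, 55% were higher in HepG2 and 61.8% were lower in K562, and nothing is read from these counts. IFNGR1, a chain of the interferon-gamma receptor, averaged 149 in the HepG2 knockdown and 68.4 in the HepG2 control, 2.17-fold higher. In K562 TMEM173, which encodes the DNA-sensing adaptor STING, averaged 42.3 in the knockdown and 104 in the control, 2.43-fold lower. IRF2, which binds the same elements as IRF1 and can oppose it, averaged 10 in the K562 knockdown and 30 in the K562 control, 2.82-fold lower. The double-stranded RNA sensors IFIH1 and DDX58, their adaptor MAVS and the kinase EIF2AK2 were in neither table, nor was any of the interferon ligands of the list, STAT2 or IRF9. Of 20 antigen presentation genes, none was listed by symbol; by Ensembl identifier, a HepG2 row without a symbol was HLA-B, at 794 in the knockdown and 391 in the control, 2.03-fold higher. HLA-B shares sequence with other HLA class I genes, and how such reads were assigned is not stated.

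IFIT2 was higher in the HepG2 knockdown and lower in the K562 knockdown, as were 40 of the 94 genes listed in both tables; 24 were lower in HepG2 and higher in K562, 22 were lower in both and 8 were higher in both. Of the 94, 46 had no symbol. The tables shared 48 symbols, 5.07% of the HepG2 symbols and 10.8% of the K562 symbols. Of these, 24 were higher in the HepG2 knockdown and lower in the K562 knockdown, IFIT2 and NMI among them; 9 were lower in HepG2 and higher in K562, 5 were higher in both and 10 were lower in both, ADAR included. Each line has its own control. The symbols with the pair of log2 folds nearest to that of IFIT2 were ITGA6 (1.10 in HepG2, -1.47 in K562), SKAP2 (1.14 and -1.36 in the same order) and CD70 (1.03 and -1.36). The difference in the IFIT2 fold between the lines could not be tested with 1 sample a group.

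**Figure D4:**
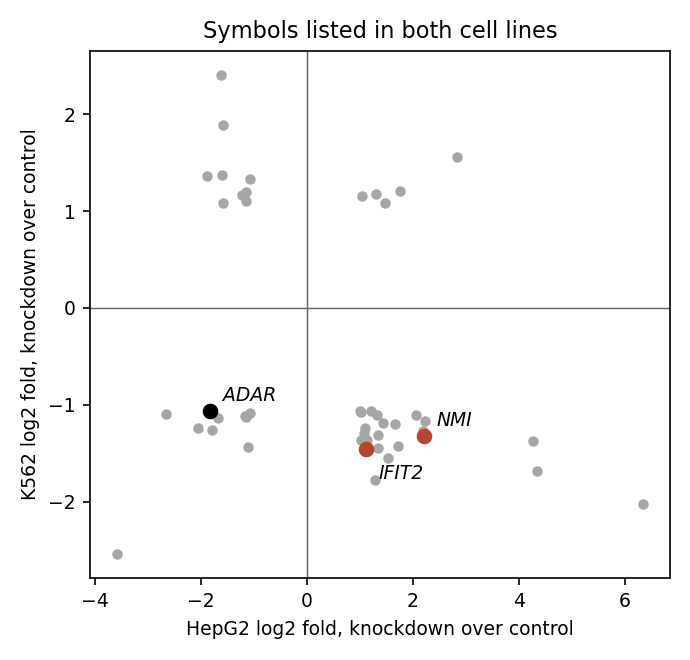
Log2 fold of knockdown over control in HepG2 (horizontal) and K562 (vertical) for the 48 symbols listed in both tables, with IFIT2, NMI and ADAR marked. IFIT2 and NMI lie in the lower right among the 24 symbols higher in HepG2 and lower in K562, and ADAR lies in the lower left.

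Genes with averages most like those of the members were found within each table, by the distance between both log2 averages. For IFI16 in HepG2 they were PSPHL, CDCP1 and MYEOV, within 0.19 log2 units. For IFIT2 they were ALCAM, RIOK3 and ELF3 in HepG2, within 0.17, and CROCCL1, SERPINE2 and TTC13 in K562, within 0.057; CROCCL1 had the same averages as IFIT2. For PARP9 in HepG2 they were PCDHB14, AKAP9 and MAGI1, within 0.043. For UBE2L6 in K562 they were MYSM1, LITAF and C19ORF77, within 0.30. Each likeness rests on 2 averages of 1 sample each.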

How the data were processed

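RNA was extracted with TRIzol and read on the Illumina GAIIx, 76 bases from each end, with 2 technical replicates per sample, per the labels' protocols. TopHat, SAMtools and hg19 are named, without versions, in the submitters' processing notes; for the counting tool, annotation, strand setting and scaling, the sources used here give nothing. Per the file headers, the authors deposited an average for knockdown and control, treated as a signal of unnamed unit, with a log2 fold and a signed fold, treated as a score. The deposited log2 values equalled the log2 ratio of the averages after adding 1, which was the pseudocount used here and understates differences of low genes.

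Groups came from the sample titles. For symbols listed more than once, the row with the highest mean average was kept (1409 of 1413 rows in HepG2, 942 of 945 in K562); each gene described had 1 row. Names by Ensembl identifier matched 1271 and 837 rows. Overlaps came from GENCODE 29 on GRCh38, so no gene coordinates are given for the hg19 files; sequences came from RefSeq on GRCh38.p14. The members and gene lists were chosen with earlier results of these data known. The named genes were the members, ADAR, every listed symbol of the interferon-related lists, and the 3 nearest symbols to each member. HLA-B, which has no symbol in its row, the marker ITGAM, the overlapping AL353751.1, and IFRD1, IL18, IL6 and IFI27L2 were named after their values were seen. Some genes of the lists are not reported here. With 1 sample per group no test was made. The fold and motif steps were tested on simulated data. Python 3.11.15, numpy 2.4.6, pandas 2.3.3 and matplotlib 3.10.9 were used.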

Additional observations from a re-analysis of the deposited data

Results flagged for a closer look

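IFIT2 and NMI differed in direction between the cell lines, which was not particular to them. Of the 48 symbols in both tables, 24 were higher in HepG2 and lower in K562, IFIT2 and NMI included. Another 9 were lower in HepG2 and higher in K562. The log2 fold of IFIT2 was 1.11 in HepG2 and -1.46 in K562. The log2 fold of NMI was 2.21 in HepG2 and -1.32 in K562. With 1 sample in each group, the difference between the lines was not tested, and the low K562 averages of IFIT2 and HepG2 averages of NMI add to its uncertainty.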

How the results depend on the processing

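No paired analysis was possible because each group is 1 sample and the tables give 1 average per group; leaving out a technical replicate could not be run for the same reason. No direction of the members or ADAR could reverse under these alternatives, so the lack of reversals is no support for the directions. Listed genes differ at least 2-fold, more than the scaling by 1.5, and the same pseudocount on both averages keeps the sign. IFI16 and UBE2L6 stayed past 2-fold under every pseudocount and scaling tried. With a pseudocount of 10, the log2 fold was -0.77 for IFIT2 in K562 and 0.76 for PARP9. With knockdown averages divided by 1.5 it was 0.53 for IFIT2 in HepG2 and 0.52 for PARP9. With knockdown averages multiplied by 1.5 it was -0.96 for IFIT2 in K562 and -0.48 for ADAR in K562. Members higher in HepG2 numbered 3, and 2 with a pseudocount of 10 or a filter on the larger average at its median. They numbered 1 with division by 1.5, 1 at 3-fold and 0 at 4-fold. Members lower in K562 numbered 2, and 1 each with a pseudocount of 10, multiplication by 1.5, 3-fold, and filters on the larger average at its lower quartile or its median, and 0 at 4-fold. Of the 5 interferon-stimulated genes higher in HepG2, 3 were left with a pseudocount of 10, division by 1.5, 3-fold or the lower quartile, 2 with the median and 1 at 4-fold. Of the 3 lower in K562, 2 were left with a pseudocount of 10 or either filter on the larger average. With multiplication by 1.5 or at 3-fold 1 was left, and 0 at 4-fold. The 1 lower in HepG2 is LAMP3, so 0 were left without it, an alternative chosen after seeing the data. Scaling and pseudocounts can only remove genes here, since genes under 2-fold are not in the tables. The depth is unknown, so no precision can be given for any average.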

Other observations

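Of the rows whose full gene name holds the word interferon, a choice made after the values were seen, 6 were listed in HepG2 and all 6 were higher in the knockdown, whereas 3 were listed in K562 and all 3 were lower. Over all listed genes, 55% were higher in HepG2 and 61.8% were lower in K562, and IFIT2 and IFI16 were chosen by these averages, so nothing is read from the counts. Beyond IFI16, IFIT2, IFNGR1 and IRF2, these were IFRD1, a transcriptional co-regulator, at 275 in the HepG2 knockdown and 120 in the HepG2 control, and IL18, a cytokine that induces interferon-gamma, at 230.2 in the HepG2 knockdown and 107 in the HepG2 control. IL6, once called interferon beta 2 but not an interferon, averaged 450.2 in the HepG2 knockdown and 7.83 in the HepG2 control. IFI27L2 averaged 10 in the K562 knockdown and 22.5 in the K562 control.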
